A study of Mus musculus with 6 samples.

Results

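Tibialis anterior (TA) is a fast muscle of the lower hindlimb, and RNA sequencing counted reads per gene in TA of 3 wild-type (WT) and 3 SELENOW knockout (KO) mice. The labels give an age of 24 months for all 6 libraries, and the study kept both lines on a C57BL/6N background and used male mice unless it said otherwise. The KO line lost exon 4 of Selenow, the gene of the small selenoprotein SELENOW, through a pair of sgRNAs, and no Cre or tissue-specific promoter is named that would limit the deletion to muscle fibers. No drug treatment is named for these mice. Described here are 9 mechanical stress genes, chosen by symbol from the 55416 genes of the count table: Ankrd1, Ankrd2, Csrp3, Xirp1, Xirp2, Nrap, Actc1, Acta1 and Flnc. All 9 were in the table, and all 9 passed the filter on low counts. Each library was taken as a separate mouse, as the paper describes the replicates, although the labels do not name the animals.

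A muscle fiber carries force through actin filaments that are anchored at Z-discs, at costameres along the membrane and at the myotendinous junction. Proteins at these anchor points bind titin or actin, and several of them pass to the nucleus or are made in larger amounts when a muscle is stretched, loaded, denervated or injured. In adult skeletal muscle Ankrd1, Csrp3, Xirp1 and Actc1 are known for low levels at rest and higher levels after such a challenge, whereas Acta1 encodes the main actin of the adult fiber.

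No mechanical stress gene differed between the genotypes past the thresholds used. The wide differences were among mice of one genotype. In KO muscle Csrp3, Ankrd2, Ankrd1, Actc1, Flnc and Xirp1 each varied over 3-fold among the 3 libraries, with KO replicate 2 lowest in 5 of these 6 genes, whereas Acta1, Nrap and Xirp2 stayed within 1.32-fold. In WT muscle none of the 9 genes varied over 3-fold.

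Total counts were 25351976 to 29111213 in the 6 libraries, and mitochondrially encoded genes took 29.1% to 37.3% of them in WT and 35.4% to 40.3% in KO. Values below are CPM, counts put on a scale common to libraries of different depth, with TMM factors that correct for library composition and ranged from 0.893 to 1.197. The 15 fast fiber genes, among them Ckm, Myh4 and Tnnt3, summed to 100799 to 127333 CPM, and the atrial and cardiac markers Myl7, Gata4 and Nkx2-5 were at 0 counts in all 6 libraries. Of the other cardiac markers, Myh6 was at 1.52 to 3.73 CPM, Tnnt2, which developing skeletal fibers also express, at 1.53 to 22.7 CPM, and Nppa, Nppb, Tnni3 and Ryr2 were all below 1 CPM. Selenow itself was at 268, 245 and 219 CPM in WT and at 193, 212 and 210 CPM in KO (log2 fold change -0.25, standard error 0.14, edgeR adjusted p = 0.604). The counts are per gene, so the loss of exon 4 was not measured directly. For the protein, the paper reports a Western blot of TA muscle in which SELENOW was lost in this KO line. These are bulk samples, in which fewer cells of a type and less RNA per cell cannot be told apart.

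**Figure D1:**
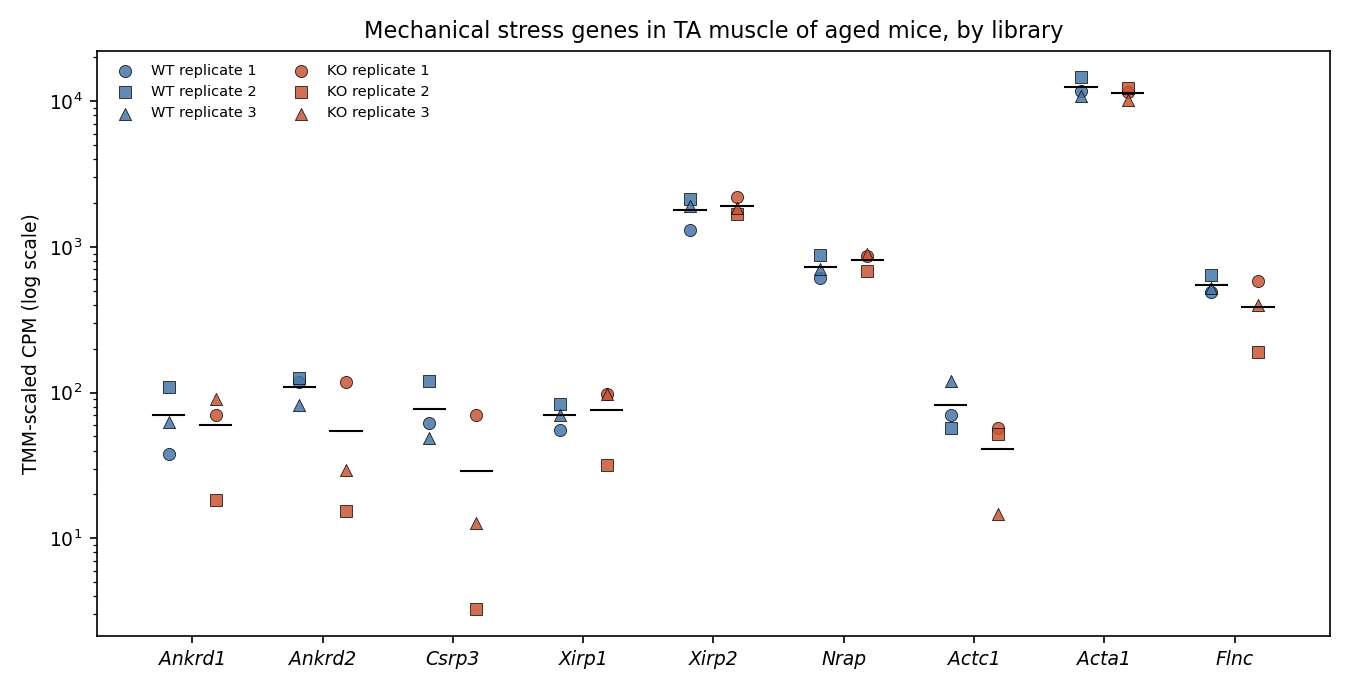
TMM-scaled CPM on a log axis for each mechanical stress gene, with WT libraries in blue on the left and KO libraries in orange on the right, the replicate number given by the marker and the group mean by the bar. KO replicate 2 (square) lies far below the other KO libraries for Csrp3 at 3.26 CPM, while Acta1, Nrap and Xirp2 form tight groups.

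The question addressed was whether loss of SELENOW in aged muscle went with a change in these genes. A gene was called where edgeR's quasi-likelihood test gave an unadjusted p under 0.05 together with a fold change over 1.5 or under 0.7, the thresholds of the study. Of the 9 genes 0 were called, against 5.35% of the 15623 genes tested, and DESeq2 also called 0, against 4.94%. An unadjusted p under 0.05 was given to 0 of the 9 genes by edgeR, against 9.89% of all tested genes, and to 0 by DESeq2. Adjusted over all tested genes, the smallest p among the 9 was 0.664 with edgeR, and no gene of the whole table passed 0.05 with edgeR, against 45 genes with DESeq2, none of them among the 9. By sign alone, 6 genes were lower and 3 were higher in KO, with a median log2 fold change of -0.23 against -0.0042 over all tested genes. The groups did not overlap for 1 of the 9 genes, Actc1, lower in KO, against 15.4% of all tested genes in either direction and 7.87% in this direction. Leaving out KO replicate 1 gave 3 called genes, Ankrd2, Csrp3 and Flnc, against 6.66% of all genes in that fit, a fit with no low-count filter gave 1, Flnc, against 5.6%, and turning robust estimation off gave 1, Actc1, against 5.88%.

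**Figure D2:**
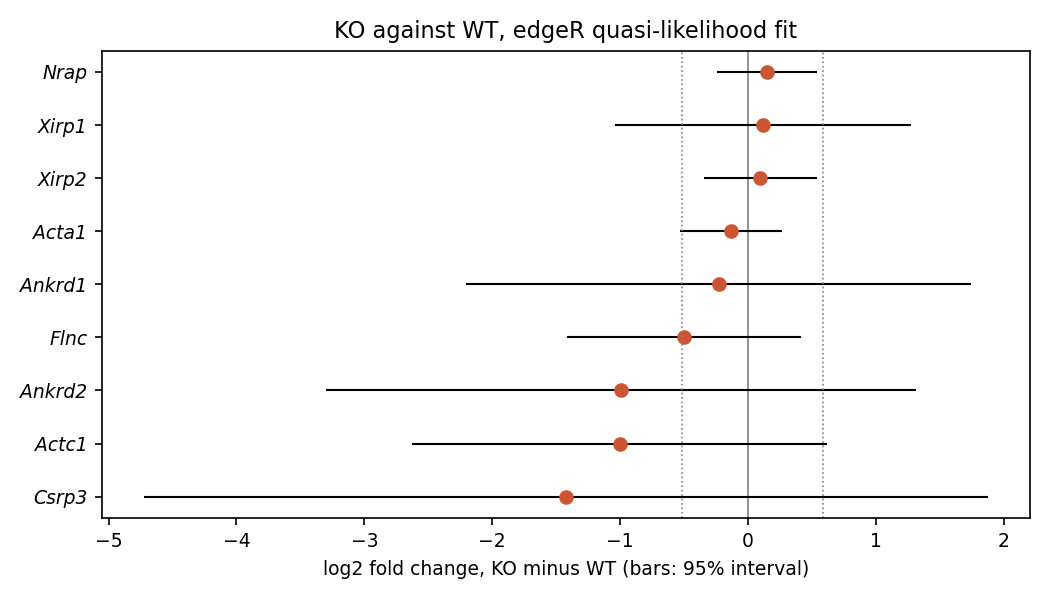
Log2 fold change of KO against WT for each mechanical stress gene (points) with its 95% interval (bars), from edgeR's quasi-likelihood fit; dotted lines mark folds of 0.7 and 1.5. Every interval crosses 0, and those of Csrp3 (-4.72 to 1.87), Ankrd2 and Ankrd1 are the widest.

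Ankrd1 and Ankrd2 encode muscle ankyrin repeat proteins, which bind the elastic N2A segment of titin and can move to the nucleus. Ankrd1 lies on the minus strand of chr19:36111961-36120099 (GRCm38) and Ankrd2 on the plus strand of chr19:42036000-42045110. Ankrd1 was at 37.8, 109 and 62.5 CPM in WT replicates 1, 2 and 3 and at 70.5, 18.3 and 89.9 CPM in KO replicates 1, 2 and 3. The lowest of the 6 libraries was KO replicate 2 and the highest WT replicate 2, and among the other 4 libraries both KO values were above both WT values. The log2 fold change was -0.23 (standard error 0.74, 95% interval -2.21 to 1.75, edgeR adjusted p = 0.946), and without WT replicate 2 it was 0.25, without KO replicate 2 0.20.

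Ankrd2 was at 118, 126 and 81.9 CPM in WT and at 119, 15.5 and 29.6 CPM in KO. KO replicate 1 stood among the WT libraries, whereas KO replicates 2 and 3 were both below every WT library. The log2 fold change was -0.99 (standard error 0.86, 95% interval -3.30 to 1.32, edgeR adjusted p = 0.753). Without KO replicate 1 it was -2.27 (edgeR unadjusted p = 0.000143), a call that rests on leaving out the KO library that resembled WT, and without KO replicate 2 it was -0.55 (edgeR unadjusted p = 0.471). Ankrd23, the remaining member of this ankyrin family, did not share the low values: it was at 1238, 1064 and 1098 CPM in WT and at 1005, 1427 and 1703 CPM in KO. Per kilobase, Ankrd1 made up 2.27%, 6.95% and 4.33% of the 3 ankyrin repeat genes in WT and 4.87%, 1.15% and 4.53% in KO (exact permutation test, two-sided, p = 0.7). The longest identical stretch between the coding sequences of Ankrd1 and Ankrd2 was 11 bases, so few reads could have been shared between them.

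Csrp3 encodes muscle LIM protein, a Z-disc and nuclear protein with LIM zinc fingers, and lies on the minus strand of chr7:48830398-48848033. It was at 62.2, 120 and 49.0 CPM in WT and at 70.4, 3.26 and 12.7 CPM in KO. As with Ankrd2, KO replicate 1 was within the WT range and KO replicates 2 and 3 were below all WT libraries. The 3.26 CPM of KO replicate 2 came from 80 reads, with an exact Poisson 95% interval of 63.4 to 99.6 that covers counting error only, against 1489 to 3870 reads in the WT libraries. The log2 fold change of -1.42 had the widest error of the 9 genes (standard error 1.22, 95% interval -4.72 to 1.87, edgeR adjusted p = 0.751), and without KO replicate 1 it was -3.26 (edgeR unadjusted p = 0.0259). Without KO replicate 2 it was -0.90 and without WT replicate 2 -0.95 (edgeR unadjusted p = 0.417 and 0.554). Csrp1, a LIM protein of other tissues, was at 9.78, 9.93 and 8.17 CPM in WT and at 8.42, 6.73 and 7.07 CPM in KO. Per kilobase, Csrp3 was 81.4%, 89.6% and 80.9% of the summed Csrp1, Csrp2 and Csrp3 in WT and 85.8%, 24.9% and 54.8% in KO (exact permutation test, two-sided, p = 0.3), so the family was led by Csrp1 and Csrp2 together in KO replicate 2.

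Xirp1 and Xirp2 encode Xin repeat proteins, which bind and bundle actin filaments and bind filamin C. Xirp1 is on the minus strand of chr9:120013755-120023598 and Xirp2 on the plus strand of chr2:67446002-67526614. Xirp1 was at 55.3, 83.7 and 70.2 CPM in WT and at 97.4, 32.0 and 97.6 CPM in KO. KO replicates 1 and 3 were above every WT library and KO replicate 2 was below every one, so the log2 fold change of 0.12 (standard error 0.46, 95% interval -1.04 to 1.27, edgeR adjusted p = 0.954) averages opposite differences. Without KO replicate 2 it was 0.49 (edgeR unadjusted p = 0.0230), under the fold threshold. Xirp2 was at 1297, 2115 and 1922 CPM in WT and at 2202, 1670 and 1835 CPM in KO. Its lowest and highest libraries were WT replicate 1 and KO replicate 1, and the log2 fold change was 0.10 (standard error 0.20, 95% interval -0.34 to 0.54, edgeR adjusted p = 0.905). As a share of Xirp1 plus Xirp2 per kilobase, Xirp1 was 8.96%, 8.37% and 7.77% in WT and 9.27%, 4.23% and 10.9% in KO (exact permutation test, two-sided, p = 1). The share in KO replicate 2 was the lowest of the 6 and that in KO replicate 3 the highest.

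Nrap encodes nebulin-related anchoring protein, an actin-binding LIM protein of the myotendinous junction and of forming myofibrils, on the minus strand of chr19:56320035-56390037. It was at 615, 876 and 700 CPM in WT and at 860, 678 and 894 CPM in KO. KO replicate 2 was again the lowest KO library, but it stayed within the WT range. With a log2 fold change of 0.15 (standard error 0.18, 95% interval -0.24 to 0.54, edgeR adjusted p = 0.810), Nrap had the narrowest interval of the 9 genes, which spans folds of 0.847 to 1.45.

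Flnc encodes filamin C, which crosslinks actin at the Z-disc and gathers at sites of fiber damage, and it lies on the plus strand of chr6:29433256-29461883. It was at 490, 639 and 521 CPM in WT and at 579, 190 and 396 CPM in KO. KO replicates 2 and 3 were below all WT libraries and KO replicate 1 was not. The log2 fold change was -0.50 (standard error 0.38, 95% interval -1.41 to 0.41, edgeR adjusted p = 0.708), and without KO replicate 1 it was -0.90 (edgeR unadjusted p = 0.0151) and without KO replicate 2 it was -0.17 (edgeR unadjusted p = 0.446). The related filamin gene Flna was at 13.9, 10.1 and 12.5 CPM in WT and at 17.0, 16.9 and 13.5 CPM in KO. Flnc made up 96.1%, 97.7% and 97.0% of the 3 filamin genes per kilobase in WT and 96.4%, 88.6% and 95.4% in KO (exact permutation test, two-sided, p = 0.2).

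Acta1 and Actc1 encode the skeletal and cardiac alpha-actins. The cardiac form is the main actin of fetal skeletal muscle and returns in regenerating fibers. Acta1, on the minus strand of chr8:123891769-123894751, was at 11808, 14583 and 10941 CPM in WT and at 11612, 12265 and 10188 CPM in KO. The groups overlapped, with a log2 fold change of -0.13 (standard error 0.18, 95% interval -0.53 to 0.26, edgeR adjusted p = 0.840). Actc1, on the minus strand of chr2:114047282-114053548, was at 69.8, 57.2171 and 120 CPM in WT and at 57.1973, 51.6 and 14.6 CPM in KO.

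Every KO value of Actc1 was below every WT value, but the nearest libraries, WT replicate 2 and KO replicate 1, were almost equal, and the distance between the group means came from a high WT replicate 3 and a low KO replicate 3. The log2 fold change was -1.004 (standard error 0.62, 95% interval -2.63 to 0.62, edgeR adjusted p = 0.664), and an exact permutation test, two-sided, gave p = 0.1, the smallest p that 3 against 3 libraries allow. Without WT replicate 3 the log2 fold change was -0.63 and without KO replicate 3 -0.60 (edgeR unadjusted p = 0.410 and 0.0832). With robust estimation turned off, edgeR gave Actc1 an unadjusted p of 0.0415. As a share of both actins per kilobase, Actc1 was 0.558%, 0.371% and 1.03% in WT and 0.465%, 0.398% and 0.135% in KO. On this scale the groups overlapped (exact permutation test, two-sided, p = 0.3), since KO replicates 1 and 2 were above WT replicate 2. The coding sequences of the actins, 1131 bases each, were 86.3% identical with a longest shared stretch of 29 bases, and 0.813% of the 25-base words of Actc1 occurred in Acta1. How the counting treated reads that match both genes is not stated, so a small part of the Actc1 counts could come from the far more abundant Acta1.

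The bases before the start sites are shown for both actin genes, which share a CArG box, and for Csrp3 and Ankrd2, which were low in the same KO libraries. Whether letters in these windows bear on the values was not tested. RefSeq (GRCm38.p6) gives promoters for 8 of the 9 genes, all but Xirp1. Capitals mark the CArG box of serum response factor, the MCAT box CATTCC of TEAD factors, the MEF2 site and the TATA box TATAAA, each searched on both strands. The short E-box CANNTG, which is common, was searched too and is not marked.

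Acta1, chr8:123894776-123894925, minus strand: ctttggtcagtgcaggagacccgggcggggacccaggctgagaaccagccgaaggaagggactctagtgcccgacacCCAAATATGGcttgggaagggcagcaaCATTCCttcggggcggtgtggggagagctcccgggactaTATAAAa
Actc1, chr2:114052876-114053025, minus strand: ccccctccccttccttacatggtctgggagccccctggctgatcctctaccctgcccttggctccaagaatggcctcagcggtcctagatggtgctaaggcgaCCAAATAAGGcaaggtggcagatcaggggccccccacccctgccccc
Csrp3, chr7:48848052-48848201, minus strand: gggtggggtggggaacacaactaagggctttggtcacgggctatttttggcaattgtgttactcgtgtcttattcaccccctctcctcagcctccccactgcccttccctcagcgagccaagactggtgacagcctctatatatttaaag
Ankrd2, chr19:42035877-42036026, plus strand: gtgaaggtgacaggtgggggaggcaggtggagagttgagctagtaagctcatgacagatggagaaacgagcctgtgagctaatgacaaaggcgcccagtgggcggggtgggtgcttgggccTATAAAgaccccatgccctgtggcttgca

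In the 250 bases before the RefSeq starts, a CArG box was found in Acta1 (CCAAATATGG, from 73 to 64 bases before the start) and in Actc1 (CCAAATAAGG, from 47 to 38 bases before it), and in none of the other windows of these genes. Of 32851 RefSeq promoters, 1.47% hold a CArG box in a window of this length. An MCAT box was found in Ankrd1, Acta1 and the window of the second Flnc start, against 12.6% of promoters, and a MEF2 site in Xirp2, against 2.92%. The whole Ankrd1 window lies within an exon of the gene in GENCODE M21, so its matches are in annotated exon. Annotated exon also covers 27 bases of the Ankrd2 window and 12 of the Actc1 window, which lies inside the gene's GENCODE span. Distances therefore hold for the RefSeq starts only. The TATA letters were present in Ankrd2, from 29 to 24 bases before the start, and in Acta1, from 7 to 2 bases before it, against 12.4% of promoters. An E-box was found in Ankrd1, Ankrd2, both Csrp3 windows, Xirp2, Nrap and Acta1, against 66.2% of promoters. These matches are letters in a window and were not measured as binding sites.

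Levels of different genes can be compared only per length. By mean CPM per kilobase of counted length, Acta1 led with 8101 ± 1238 over the WT libraries (SD, n = 3) and 7393 ± 691 over the KO libraries (SD, n = 3). Nrap followed with 133 ± 24.2 and 147 ± 21.1, Xirp2 with 124 ± 29.7 and 132 ± 18.9, and Ankrd2 with 95.7 ± 20.8 and 48.1 ± 49.4, in WT and KO respectively. Flnc had 58.5 ± 8.37 and 41.3 ± 20.7, Actc1 50.9 ± 20.6 and 25.4 ± 14.3, Csrp3 28.9 ± 14.2 and 10.8 ± 13.6, Ankrd1 24.2 ± 12.5 and 20.6 ± 12.8, and Xirp1 11.2 ± 2.28 and 12.1 ± 6.07. The order is that of the WT means. Of neighbours in it, only Acta1 and Nrap were apart in both genotypes. Ankrd2 and Flnc were apart in WT alone and Xirp2 and Ankrd2 in KO alone, with the difference between genotypes not tested, and all other neighbours overlapped.

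The spread among libraries of one genotype was then described for the 5346 genes with a mean of at least 10 CPM. The SD of log2 CPM had a median of 0.167 in WT and 0.138 in KO over these genes. In KO, Csrp3 had an SD of 2.21, Ankrd2 of 1.503, Ankrd1 of 1.24, Actc1 of 1.10, Xirp1 of 0.93 and Flnc of 0.82, all between the 99.3 and 99.9 percentiles. Acta1 (0.14), Xirp2 (0.20) and Nrap (0.22) were between the 49.7 and 77.5 percentiles. In WT, Ankrd1 (0.76), Csrp3 (0.67) and Actc1 (0.55) were between the 97.5 and 99.1 percentiles, and the other 6 genes were between the 62.0 and 92.0 percentiles. Ankrd1, Csrp3 and Actc1 were therefore variable in both genotypes, while Ankrd2, Xirp1 and Flnc were variable mainly in KO. With 3 libraries per genotype, this difference in spread was not tested.

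**Figure D3:**
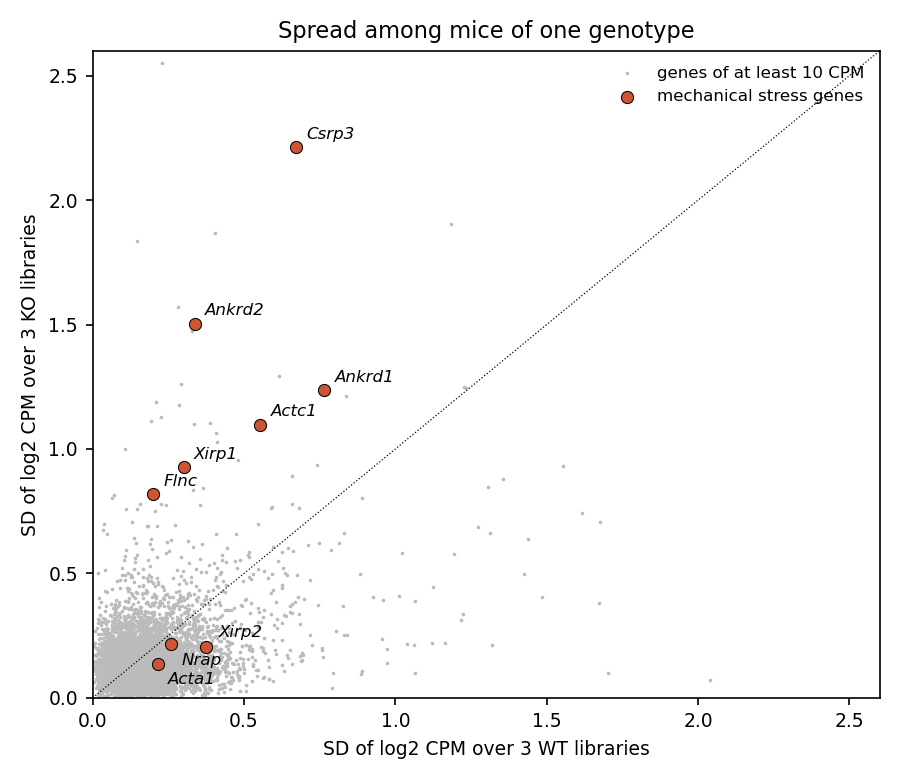
SD of log2 CPM over the 3 KO libraries (vertical axis) against that over the 3 WT libraries (horizontal axis) for genes with a mean of at least 10 CPM (grey) and the mechanical stress genes (orange); the dotted line marks equal SD. Csrp3 (0.67 in WT, 2.21 in KO), Ankrd2, Ankrd1, Actc1, Xirp1 and Flnc lie above the line, and Xirp2, Nrap and Acta1 lie below it.

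Between the highest and the lowest KO library, Csrp3 differed 21.6-fold, Ankrd2 7.70-fold, Ankrd1 4.92-fold, Actc1 3.93-fold and both Flnc and Xirp1 3.05-fold. A span over 3-fold was thus seen in 6 of 9 mechanical stress genes in KO, against 0.636% of genes of at least 10 CPM, and in 0 of 9 in WT, against 0.786%. The limit of 3-fold was chosen after these values had been seen. Without KO replicate 2 the count was 3 (Ankrd2, Csrp3 and Actc1, against 0.262% of genes), without KO replicate 1 it was 4 and without KO replicate 3 it was 5, so no single KO library accounted for the whole count.

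KO replicate 2 was the lowest of the 6 libraries in 5 mechanical stress genes, against 24.0% of genes of at least 10 CPM, and the lowest KO library in 7 of 9, against 37.0%. WT replicate 2 was the highest WT library in 8 of 9, against 39.1%. KO replicate 2 lay within the range of the other libraries in depth (27345022 counts), mitochondrial share (38.2%) and TMM factor (0.898 against 0.893 in KO replicate 1). It had the most genes with a count, 25020, against 23287 and 22711 in KO replicates 1 and 3 and 24015 to 24570 in WT. The part of library quality in its values was not tested. In 13 genes of at least 10 CPM, or 0.243%, KO replicate 2 was under 0.5 of every other library, a limit also chosen after the values were seen. Ankrd1, Csrp3 and Flnc were 3 of them, and the others were Cryab, Hspb1, Hsp25-ps1, Gm9817, Klhl40, Dupd1, Lmcd1, Rgcc, Srxn1 and Tnfrsf12a. Cryab and Hspb1 encode small heat shock proteins that protect Z-disc proteins and actin filaments, and Klhl40 stabilizes thin filament proteins. Hsp25-ps1 is a processed pseudogene of Hspb1, and reads may have been shared between them. Gm9817 was close to Hsp25-ps1 in every library (3.67 and 3.87 CPM in KO replicate 2), so Hspb1, Hsp25-ps1 and Gm9817 may not be separate signals.

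Filamin C that unfolds under tension is removed by chaperone-assisted autophagy, in which BAG3 joins the chaperones HSPA8 and HSPB8 to the ubiquitin ligase STUB1 and the adaptor SQSTM1. Of 14 such genes tested, edgeR called 0 and gave 0 an unadjusted p under 0.05, and DESeq2 called 1, Hspa1b. Their median log2 fold change was -0.099. Bag3 was at 65.3, 68.8 and 61.0 CPM in WT and at 55.9, 36.3 and 59.0 CPM in KO (log2 fold change -0.37, standard error 0.17, edgeR adjusted p = 0.520). Sqstm1 was at 346, 451 and 364 CPM in WT and at 377, 218 and 327 CPM in KO (log2 fold change -0.33, standard error 0.20, edgeR adjusted p = 0.627). In 7 of the 11 genes of this list with at least 10 CPM, KO replicate 2 was the lowest of the 6 libraries, against 24.0% of all genes at that level. It was the lowest for Flnc too.

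Other genes of the list were picked out after their values were seen. Hspb7, a small heat shock protein that binds filamin C, was at 488, 617 and 658 CPM in WT and at 773, 163 and 305 CPM in KO. Hspb1 was at 106, 149 and 87.6 CPM in WT and at 121, 31.5 and 116 CPM in KO. The stress-inducible chaperone gene Hspa1a was at 2.84, 2.86 and 2.67 CPM in WT and at 3.63, 0.897 and 44.4 CPM in KO, and its near-identical copy Hspa1b had the same pattern, with uncertain assignment of reads between them. KO replicate 3, which was high in both, was low in Ankrd2, Csrp3 and Actc1 and not in Ankrd1 or Xirp1. What part, if any, a stress response had in the values of the mechanical stress genes was not tested.

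**Figure D4:**
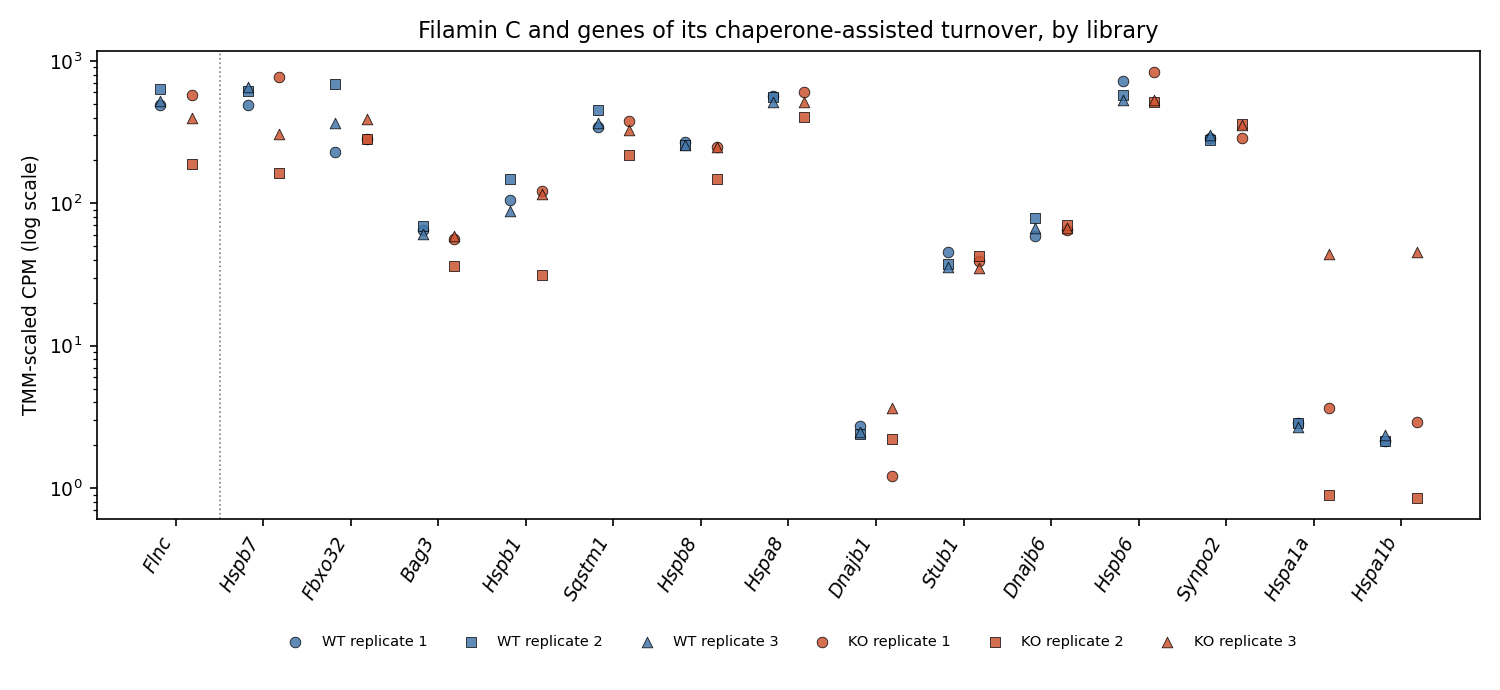
TMM-scaled CPM on a log axis for Flnc (left of the dotted line) and the 14 genes of filamin C chaperone-assisted turnover, in order of log2 fold change, with WT libraries in blue and KO libraries in orange and markers for replicate numbers. KO replicate 2 (orange square) is the lowest library for Flnc, Hspb7, Bag3, Hspb1, Sqstm1 and Hspb8, whereas KO replicate 3 (orange triangle) is far above the rest for Hspa1a at 44.4 CPM and for Hspa1b.

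Titin and other Z-disc partners of these proteins were the next group. Of 34 such genes tested, edgeR called 0 and gave 1 an unadjusted p under 0.05, and DESeq2 called 1, Myoz2. The median log2 fold change was -0.045. The lowest p belonged to Pdlim1, a PDZ and LIM adaptor, at 6.94, 6.66 and 5.83 CPM in WT and 5.28, 4.61 and 4.90 CPM in KO (log2 fold change -0.39, standard error 0.16, edgeR adjusted p = 0.456). Csrp1, described above, came next. Low values in KO replicates 2 and 3 were also seen in Fhl1, a LIM protein that binds titin and was picked out after its values were seen, at 2189, 2042 and 2209 CPM in WT and at 2372, 1029 and 827 CPM in KO.

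Adhesion proteins of the costamere and the myotendinous junction numbered 27 tested, with a median log2 fold change of 0.026. Of them 1 rose past the thresholds, against 2.21% of all tested genes, and 1 fell, against 3.14%. Lims2, which encodes the integrin-linked adaptor PINCH2, rose by 0.67 on the log2 scale, from 5.84, 3.64 and 3.89 CPM in WT to 6.24, 7.66 and 7.33 CPM in KO (standard error 0.20, edgeR adjusted p = 0.316). Sntb1, which encodes a syntrophin of the dystrophin complex, fell by 1.01, from 2.96, 3.92 and 4.28 CPM to 2.74, 1.92 and 0.898 CPM (standard error 0.34, edgeR adjusted p = 0.378). Both passed the unadjusted threshold only.

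Mechanical signals reach the nucleus in part through YAP with TEAD factors and through serum response factor (SRF) with its actin-sensing cofactors. Of 27 YAP and TEAD genes tested, edgeR called 0 and gave 4 an unadjusted p under 0.05, against 9.89% of all tested genes. DESeq2 called 0, and the median log2 fold change was 0.088. The lowest p values were those of Arhgef17 (log2 fold change 0.36, edgeR adjusted p = 0.440) and Sav1 (log2 fold change 0.38, edgeR adjusted p = 0.458). Of 17 SRF pathway genes tested, 1 rose, against 2.21% of all tested genes, and 1 fell, against 3.14%. Their median log2 fold change was -0.012. Filip1l, a filamin-interacting protein gene, was at 20.1, 17.7 and 25.8 CPM in WT and at 30.2, 34.7 and 33.8 CPM in KO (log2 fold change 0.63, standard error 0.15, edgeR adjusted p = 0.275). Fos, an immediate early gene, was at 2.35, 1.68 and 3.29 CPM in WT and at 1.57, 1.39 and 1.01 CPM in KO (log2 fold change -0.88, standard error 0.30, edgeR adjusted p = 0.378). Srf itself was at 16.6, 20.3 and 17.4 CPM in WT and at 15.1, 16.8 and 17.1 CPM in KO, which overlapped.

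Actc1 was described beside markers of regenerating and developing fibers, since it is one of the actins of such fibers. Of 20 markers tested, 8 fell in KO, against 3.14% of all genes, and 0 rose, against 2.21%, by edgeR's unadjusted p and the fold thresholds. DESeq2 called 12, against 4.94% of all genes in its fit, and the median log2 fold change was -1.04 against -0.0042 over all genes. Several of these markers were named by the study from the same libraries, so the count is not independent evidence of its direction. Myog, which drives myoblast differentiation, was at 5.68, 3.64 and 7.15 CPM in WT and at 3.30, 1.51 and 2.02 CPM in KO (log2 fold change -1.27, standard error 0.32, edgeR adjusted p = 0.299). Cdkn1a (log2 fold change -0.78), Runx1 (-0.72) and H19 (-1.03) were the others with the lowest p values, with edgeR adjusted p values of 0.301, 0.316 and 0.338. The developmental myosin genes, picked out after their values were seen, were not called by edgeR. Myh3 was lower in KO (log2 fold change -1.63, edgeR unadjusted p = 0.113) and Myh8 higher (0.27, edgeR unadjusted p = 0.236). Myh8 was at 3017, 4733 and 2902 CPM in WT and at 3636, 4921 and 4272 CPM in KO. Like the fast myosin gene Myh4, it was highest in KO replicate 2 and next highest in WT replicate 2. How reads that match several myosin genes were counted is not stated, and their part in the Myh8 values was not tested. Whether KO muscle held fewer regenerating fibers was not tested.

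**Figure D5:**
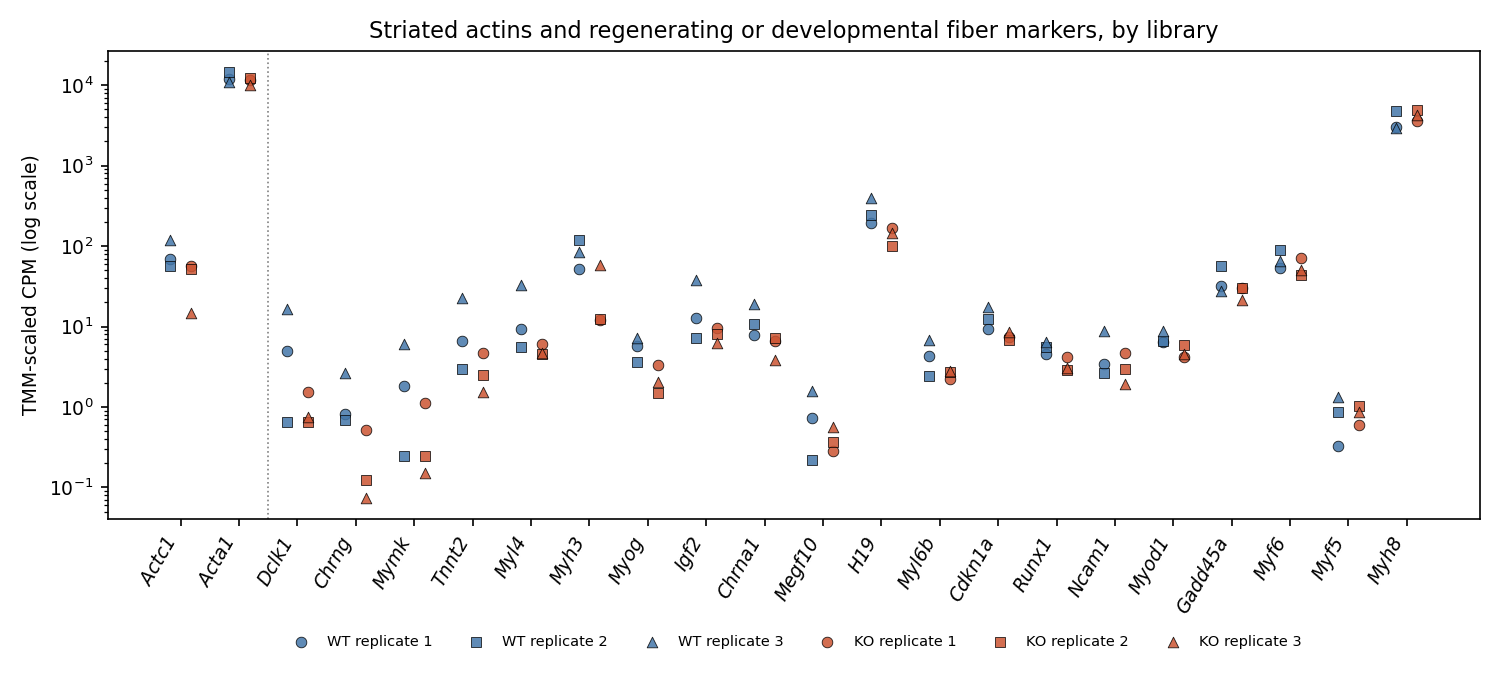
TMM-scaled CPM on a log axis for Actc1 and Acta1 (left of the dotted line) and the 20 markers of regenerating and developing fibers, in order of log2 fold change, with WT libraries in blue and KO libraries in orange and markers for replicate numbers. WT replicate 3 (blue triangle) is the highest library for Actc1 at 120 CPM and for H19, Igf2 and Myl4, and Acta1 shows no such separation.

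WT replicate 3, the highest library for Actc1, was also the highest in summed leukocyte markers, which were 34.6, 22.5 and 80.5 CPM in WT and 32.4, 23.0 and 17.8 CPM in KO, with KO replicate 3 lowest as for Actc1. Of 13 leukocyte markers tested, 1 rose (Cd3e), against 2.21% of all genes, and 2 fell (Csf1r and S100a9), against 3.14%, by edgeR. By sign alone, 11 of the 13 were lower in KO. Cd3e was at 0.811 to 3.14 CPM and S100a9 at 0.0748 to 1.05 CPM. The other T cell markers Cd3g, Cd8a and Cd4 were at most 0.137 CPM and were not tested, so a change in T cells cannot be read from Cd3e. DESeq2 called 6, against 4.94% of all genes in its fit, and the median log2 fold change was -1.11. Summed fibroblast and tendon markers were 152, 79.5 and 288 CPM in WT and 150, 69.1 and 114 CPM in KO, and of 9 tested edgeR called 0, with 0 at an unadjusted p under 0.05 and 0 by DESeq2. By sign alone 8 of the 9 were lower in KO, with a median log2 fold change of -0.63. WT replicate 3 was highest in that sum too, and KO replicate 2, the library in which Csrp3, Ankrd2, Ankrd1, Flnc and Xirp1 were lowest, was its lowest. WT replicate 2, next lowest in the sum at 79.5 CPM, was the highest WT library for each of these genes. The part of these cells in the values of the mechanical stress genes was not tested.

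Fiber type genes were examined because Ankrd2 and Csrp3 are known to be higher in slow than in fast fibers. Of 14 slow fiber genes tested, edgeR called 0 and gave 0 an unadjusted p under 0.05, whereas DESeq2 called 5, against 4.94% of all genes in its fit, with a median log2 fold change of -0.44. Myoglobin (Mb) made up 89.2% to 96.4% of their summed CPM. With Mb the sum was 2095, 1053 and 1433 CPM in WT and 1426, 1400 and 1773 CPM in KO, lowest in WT replicate 2. Without Mb it was 114, 77.1 and 155 CPM in WT and 93.2, 74.5 and 64.5 CPM in KO. It was then lowest in KO replicates 2 and 3, where Ankrd2 and Csrp3 were low too. WT replicate 2 came close to KO replicate 2 in this sum and had the highest Ankrd2 and Csrp3 of all libraries. The part of slow fibers in the values of Ankrd2 and Csrp3 was not tested. The lowest p values were those of the slow troponin gene Tnnc1 (log2 fold change -1.39, edgeR adjusted p = 0.542) and the slow calcium pump gene Atp2a2 (log2 fold change -0.61, edgeR adjusted p = 0.580). Of 15 fast fiber genes tested, edgeR called 0 and gave 0 an unadjusted p under 0.05, and DESeq2 called 0, with a median of 0.078. Among them the lowest p values were those of Actn3 (log2 fold change 0.43, edgeR adjusted p = 0.528) and Tpm2 (0.23, edgeR adjusted p = 0.676).

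Markers of further cell types that TA muscle can hold were counted as well. Endothelial markers summed to 68.1 to 112 CPM in WT and 104 to 120 CPM in KO, with 0 of 8 called by edgeR, 1 at an unadjusted p under 0.05 and 0 by DESeq2. By sign alone all 8 were higher in KO, with a median log2 fold change of 0.31. Smooth muscle markers without Des, a gene that muscle fibers express as well and that made up 81.9% to 92.1% of the sum, summed to 156 to 201 CPM in WT and 225 to 294 CPM in KO. Of the 7 tested, Rgs5 and Myh11 were called higher by both edgeR and DESeq2, against 2.21% of all tested genes called higher by edgeR. Schwann cell markers (5 tested, 6.57 to 12.4 CPM in WT and 9.13 to 15.3 in KO), adipocyte markers (2 tested, 61.9 to 122 CPM in WT and 86.4 to 111 in KO) and cardiac markers (2 tested, 4.76 to 24.2 CPM in WT and 3.14 to 8.06 in KO) held 0 genes called by edgeR and 0 at an unadjusted p under 0.05, and DESeq2 called 1, Tnnt2, among the cardiac markers. Nearly all of the adipocyte sum was Fabp4, at 61.2 to 120 CPM. The adipocyte markers Adipoq, Plin1, Cidec and Lep were at most 0.512 CPM in any library and were not tested. Of 10 paralogs of the mechanical stress genes tested, edgeR called 0 and gave 1, Flna, an unadjusted p under 0.05, and DESeq2 called 0, with a median log2 fold change of -0.054.

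Genes whose pattern over the 6 libraries was most like a mechanical stress gene were ranked by the root-mean-square (RMS) difference of mean-centred log2 CPM, where 0 is an identical pattern, among 12338 protein-coding genes. For Xirp1 they were Rps27rt (0.14), Hspb11 (0.16), Usp35 (0.17), Bhlhb9 (0.18) and Klhl40 (0.20), and of these only Klhl40 had a mean CPM over 10 (74.7). For Actc1 they were Lat2 (0.10), Ccl9 (0.23), Gm49339 (0.25), Cd84 (0.28) and Ifi27l2a (0.28), each under 2 CPM. For Ankrd1 they were Mindy4 (0.26), Hspb11 (0.31), Gper1 (0.34), Rps27rt (0.35) and Gm9817 (0.35), and for Csrp3 they were C4b (0.95), Lcn2 (0.97), Pycard (0.98), Slc22a4 (0.98) and Cyb561d2 (1.03). The other mechanical stress genes were not among the candidates, and Ankrd2 was nearer to Csrp3 (0.65) than any gene listed for it. The genes listed for Csrp3 had larger differences than those listed for the other 3. The measure is not scaled for spread, and Csrp3 had the widest spread of the mechanical stress genes in KO (SD of log2 CPM 2.21). Its larger differences therefore cannot show whether its pattern was less shared.

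Because most of these genes had few reads, the ranking was repeated, after it had been seen, among the 4952 protein-coding genes of at least 10 CPM. Ankrd1 was then followed by Gm9817 (0.35), Otud1 (0.37), Hspb1 (0.38), Mustn1 (0.48) and Klhl40 (0.48), of which Gm9817 and Hspb1 may not be separate signals. Csrp3 was followed by Tnfrsf12a (1.06), Cryab (1.06), Hspb7 (1.07), Rgcc (1.09) and Myom3 (1.11), and Xirp1 by Klhl40 (0.20), Bcl6 (0.23), Dupd1 (0.25), Gm9817 (0.29) and Enah (0.30). Actc1 had Prkag2 (0.52), Lyz2 (0.53), Casq2 (0.53), Myom3 (0.57) and Fhl1 (0.57) nearest to it.

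By the same measure among the 9 genes themselves, the nearest pair was Xirp2 and Nrap (0.15), followed by Nrap and Acta1 (0.26). Xirp1 was nearer to Flnc (0.36) and to Ankrd1 (0.38) than to its paralog Xirp2 (0.46). The gene nearest to Ankrd2 was Csrp3 (0.65), and Ankrd1 and Ankrd2, of one family, differed by 0.99. Actc1 was nearest to Acta1, at 0.88, with Flnc and Xirp2 next, both at 0.96. This does not mean that the actins varied together, since Acta1 varied little. WT replicate 3 was the highest library for Actc1 and the lowest WT library for Acta1. These distances describe 6 libraries and carry no test.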

How the data were processed

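RNA-seq of TA muscle gave 6 libraries, 3 per genotype by the labels. Paired-end reads were aligned (Hisat2) and counted per gene (featureCounts) by the authors, who deposited the raw counts without normalization. The methods name GRCm38 and the submitters' processing notes GRCm39. Only 1494 of 52083 genes had the same start and end in the count table as in GENCODE M21 (GRCm38). Positions printed here are those of GENCODE M21 and may differ from the positions that were counted. Handling of strand and multi-mapping reads is not given in the sources used here. The WT column without a number was taken as replicate 1.

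Genes were kept with filterByExpr, TMM-scaled and compared with a robust quasi-likelihood fit in edgeR (version 4.0.16, R 4.3.3), with Benjamini-Hochberg adjustment over 15623 genes. Log2 CPM used a prior count of 1. Positions in the report are 1-based. Steps were tested on simulated data. Replicates of a genotype differed by more than sampling noise (chi-square per degree of freedom 21.0 to 79.3). Deviations of same-numbered WT and KO libraries correlated at 0.060, 0.044 and -0.074, so the numbers were not taken as pairs.

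The 9 genes and the 16 lists were chosen with earlier results of these data known. Named list genes were those past the thresholds, at most the 4 with the lowest p, or otherwise the 2 with the lowest p, marker lists by counts. Genes outside this rule are said to be picked after their values were seen, as were Ankrd23, Srf and the markers and DESeq2 calls named beside small counts. Alternatives were DESeq2 (version 1.42.0), its size factors, upper quartile factors, robust estimation off, either no filter or a minimum of 10 counts in each library, a replicate block, leaving out mitochondrially encoded genes, other thresholds and leaving out each library. The ranking and the span counts without a library were added after seeing the data.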

Additional observations from a re-analysis of the deposited data

How the results depend on the processing

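With no filter on low counts 1 mechanical stress gene was called (Flnc, unadjusted p = 0.0289, against 5.6% of 31780 genes) and with robust estimation off 1 (Actc1, against 5.88%). Leaving out 1 library gave 0 to 3, the 3 being Ankrd2, Csrp3 and Flnc without KO replicate 1 (against 6.66% of 16087 genes), and the other alternatives gave 0. Over all genes the count of 836 rose to 1780 with no filter, and leaving out 1 library gave 814 to 1072. Of list genes 17 were called, 30 with DESeq2, 31 with no filter, 32 with robust estimation off and 15 to 38 without 1 library. The cause of these changes was not tested.

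Log2 fold changes near 0 changed sign. Leaving out 1 library gave Ankrd1 -0.65 to 0.25, with 0.25 without WT replicate 2 and 0.20 without KO replicate 2. Xirp1 was -0.0047 with the replicate block and -0.11 to 0.49 without 1 library, with -0.023 without WT replicate 1, -0.099 without KO replicate 1 and -0.11 without KO replicate 3. Xirp2 was -0.085 without WT replicate 1 and -0.015 without KO replicate 1, and Acta1 was -0.22 to 0.00060, the highest without WT replicate 2. The replicate block called 0 of the 9 genes and 890 of all genes. The Actc1 share of both actins, KO minus WT, was -0.13 to -0.46 percentage points without 1 library. With 3 libraries per genotype and SDs this wide, intervals of Csrp3, Ankrd2 and Ankrd1 leave several-fold differences in either direction possible.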
